A study of Homo sapiens with 31 samples.

Results

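EIF4A1, EIF4A2 and EIF4A3, the 3 paralogs of the eIF4A helicase family, were followed through 31 libraries from the HEK293 T-REx line (human embryonic kidney, built for transgenes under tetracycline control). They are 3 of 35499 transcripts kept under a rule that aims at 1 per locus. EIF4A1 was read from transcript ENST00000293831, EIF4A2 from ENST00000323963 and EIF4A3 from ENST00000649764. The files pair no transcript with a gene symbol, so each pairing rests on the transcript identifier and on its listed length. These lengths were 397, 398 and 402, each exactly 9 below the length of the protein (406, 407 and 411 amino acids). All 3 transcripts passed the filter on low counts in every comparison.

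eIF4A1 and eIF4A2 are DEAD-box RNA helicases, and each can serve as the helicase subunit of eIF4F. That complex also holds the cap-binding protein eIF4E and the scaffold eIF4G and prepares capped mRNA for the small ribosomal subunit. eIF4A1 is the more abundant form in most dividing cells. eIF4A3 has the same helicase fold but is a core subunit of the exon junction complex, which marks spliced mRNA and takes part in nonsense-mediated decay. The kinase complex mTORC1 controls eIF4F through the 4E-BP proteins and controls mRNAs that begin with a terminal oligopyrimidine (TOP) tract, a C followed by a run of C and T, through LARP1. PP242 blocks the active site of mTOR.

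Ribosome profiling, which counts the mRNA fragments (footprints) protected by ribosomes, covered naive, EIF4A1 knockout (KO) and EIF4A2 KO cells. Of each genotype there were 2 libraries in DMSO and single ones for PP242 at 1 µM and at 10 µM, given for 30 min. Naive and EIF4A1 KO cells also had RNA-seq (n = 2 per genotype), and no RNA-seq of EIF4A2 KO cells was analysed here. RNA pulldown used cells that express eIF4A1 or eIF4A2 fused to a streptavidin-binding peptide (SBP), with 2 input and 2 pulldown libraries for each protein. SBP-eIF4A1 cells were also taken 72 h after siRNA. Control siRNA (siControl) gave 2 inputs and 2 pulldowns, and siRNA against LARP1 (siLARP1) gave 2 inputs and a single pulldown. The labels give neither the number of clones behind each KO or SBP line, nor the edited site, nor whether replicates were separate cultures, so p-values measure only the spread between these libraries. The EIF4A2 KO, SBP-eIF4A2 and RNA-seq libraries stand in a block of sample records apart from all other libraries. Whether they were prepared apart was not tested. Contrasts across the blocks, such as EIF4A2 KO against naive footprints, cannot tell such a difference from the line. Total counts over the kept transcripts were 2515013 to 6420287 in profiling, 11890148 to 17642738 in inputs and pulldowns and 19706862 to 21631521 in RNA-seq. The smallest count of any member in any library was 178 (EIF4A2, EIF4A2 KO at 1 µM PP242). With 2 libraries against 2, an exact permutation test cannot go below p 0.333. Groups that do not overlap are therefore a description, and the share of all transcripts without overlap was not counted. Levels below are CPM, counts per 1000000 of the library's total over kept transcripts. Log2 changes and their standard errors (SE) come from edgeR's quasi-likelihood fit across all transcripts, with TMM library scaling and Benjamini-Hochberg adjustment over all transcripts tested.

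The annotated starts of the 3 genes are shown because mTORC1 acts on mRNAs by their first bases and the footprints of the paralogs were measured under an mTOR inhibitor. The RefSeq annotation of GRCh38.p14 places EIF4A1 on chromosome 17 from 7572825 to 7579006 (plus strand), EIF4A2 on chromosome 3 from 186783577 to 186789897 (plus strand) and EIF4A3 on chromosome 17 from 80134369 to 80147128 (minus strand). Each window runs from 10 bases before the annotated start to 20 bases from it, on the gene's strand, with the unbroken run of C and T that begins at the start in capitals. The windows are chr17:7572815-7572844 for EIF4A1, chr3:186783567-186783596 for EIF4A2 and chr17:80147109-80147138 for EIF4A3.
EIF4A1: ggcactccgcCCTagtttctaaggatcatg
EIF4A2: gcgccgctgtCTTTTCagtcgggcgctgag
EIF4A3: cggcagcggcacagcgaggtcggcagcggc
At these annotated starts EIF4A2 had a C followed by 5 more pyrimidines, EIF4A1 a C in a run of 3, and EIF4A3 an A with no pyrimidine run. A C followed by at least 4 more C or T stood at the start of 1429 of 35116 RefSeq promoter windows (4.07%). The match describes the annotated base only, since starts used in these cells were not measured here.

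In its EIF4A1 and EIF4A2 levels, 1 library went against its label and has to be named before the results. The library labelled siLARP1 input replicate 2, from SBP-eIF4A1 cells, held EIF4A1 at 1731 CPM and EIF4A2 at 1002 CPM. The other 5 inputs labelled SBP-eIF4A1 held EIF4A1 at 2913 to 3120 CPM and EIF4A2 at 276 to 341 CPM. The 2 inputs labelled SBP-eIF4A2 held EIF4A1 at 1852 and 1890 CPM and EIF4A2 at 988 and 1003 CPM. By EIF4A1 and EIF4A2 the library therefore stood with the SBP-eIF4A2 inputs and outside the range of its own line. EIF4A3 did not follow. It stood at 108 CPM, inside the 104 to 132 CPM of the other SBP-eIF4A1 inputs. The SBP-eIF4A2 inputs held EIF4A3 at 144 and 139 CPM. Other transcripts were less clear. Of 91 transcripts that differed by at least 1 log2 unit between the SBP-eIF4A2 and SBP-eIF4A1 inputs without overlap, 59 (64.8%) differed the same way between the library labelled siLARP1 input replicate 2 and replicate 1. The same count between the siControl input replicates was 42 of 91 (46.2%). The median siLARP1 replicate 2 minus replicate 1 difference was 0.13 log2 units for the 77 transcripts higher in SBP-eIF4A2 inputs. For the 14 lower ones it was -0.65. Over all 9076 transcripts, 55.0% agreed in sign (Pearson r 0.173), against 51.2% (r 0.0154) for siControl. Over 9103 transcripts, the library labelled siLARP1 replicate 2 had Spearman correlations of 0.923 and 0.920 with the SBP-eIF4A2 inputs (replicate 1, 0.922 and 0.918). It correlated most with the siControl inputs of its labelled line, at 0.959 and 0.940 (replicate 1, 0.964 and 0.953), and least with the SBP-eIF4A1 inputs without siRNA, at 0.877 and 0.882 (replicate 1, 0.889 and 0.894). The siControl inputs also share the siRNA treatment, and no SBP-eIF4A2 input with siRNA was analysed here. Replicate 1 gave the same order, so these correlations cannot tell the line from the experiment. Whether the label is wrong was not settled by these values, and results from fits that hold this library are also given without it.

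The order of the paralogs was read first in naive cells, per length of the listed coding region. In naive RNA-seq, EIF4A1 stood at 2066 and 2049 CPM, EIF4A2 at 307 and 307 CPM, and EIF4A3 at 160 and 169 CPM. Per length, mean EIF4A1 RNA was 6.73 times EIF4A2 RNA, and EIF4A2 RNA was 1.88 times EIF4A3 RNA. In naive DMSO footprints, EIF4A1 stood at 2436 and 2503 CPM, EIF4A2 at 150 and 123 CPM and EIF4A3 at 350 and 349 CPM. Per length, EIF4A1 footprints were 18.1 times and EIF4A3 footprints 2.53 times EIF4A2 footprints. EIF4A2 was thus ahead of EIF4A3 in RNA and behind it in footprints, and in neither assay did the libraries of neighbouring paralogs overlap. The mean footprint level divided by the mean RNA level (both CPM) was 1.20 for EIF4A1, 0.446 for EIF4A2 and 2.13 for EIF4A3.

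In EIF4A1 KO cells the RNA of EIF4A1 was less than in naive cells but far from absent, and the RNA of EIF4A2 rose to 1.97 times its naive level. Bulk libraries cannot tell fewer expressing cells from less RNA per cell. EIF4A1 RNA stood at 946 and 936 CPM in the KO libraries against 2066 and 2049 CPM in the naive libraries, a ratio of means of 0.457. The log2 change was -1.13 (SE 0.027; edgeR adjusted p 1.72e-25), and the groups did not overlap. EIF4A2 RNA stood at 608 and 603 CPM against 307 and 307 CPM (log2 change 0.98, SE 0.032; edgeR adjusted p 1.59e-21). Both KO libraries were above both naive libraries. EIF4A3 RNA stood at 174 and 174 CPM against 160 and 169 CPM, a log2 change of 0.07 (SE 0.041; edgeR adjusted p 0.158; 0.0328 without naive replicate 2). In this comparison 36.5% of the 25744 transcripts tested were called at an adjusted p under 0.05, so a call by itself was common. By the size of the change, EIF4A2 ranked 425 from the top and EIF4A1 926 from the bottom.

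Footprints in DMSO moved further than RNA. In EIF4A1 KO cells EIF4A1 footprints stood at 490 and 577 CPM against 2436 and 2503 CPM in naive cells, or 21.6% of the naive mean. The log2 change was -2.25 (SE 0.056; edgeR adjusted p 6.74e-70). EIF4A2 footprints stood at 714 and 685 CPM against 150 and 123 CPM, 5.11 times the naive mean (log2 change 2.32, SE 0.068; edgeR adjusted p 4.62e-62). The EIF4A2 footprints of the KO libraries lay above the EIF4A1 footprints of the same libraries, and per length mean EIF4A2 footprints were 1.31 times EIF4A1 footprints. The rise of EIF4A2 ranked 7 from the top and the fall of EIF4A1 85 from the bottom among 19844 transcripts, of which 22.7% were called. EIF4A3 footprints were 353 and 341 CPM against 350 and 349 CPM. Their log2 change was -0.05 with a 95% confidence interval of -0.18 to 0.07 (edgeR adjusted p 0.617).

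**Figure D1:**
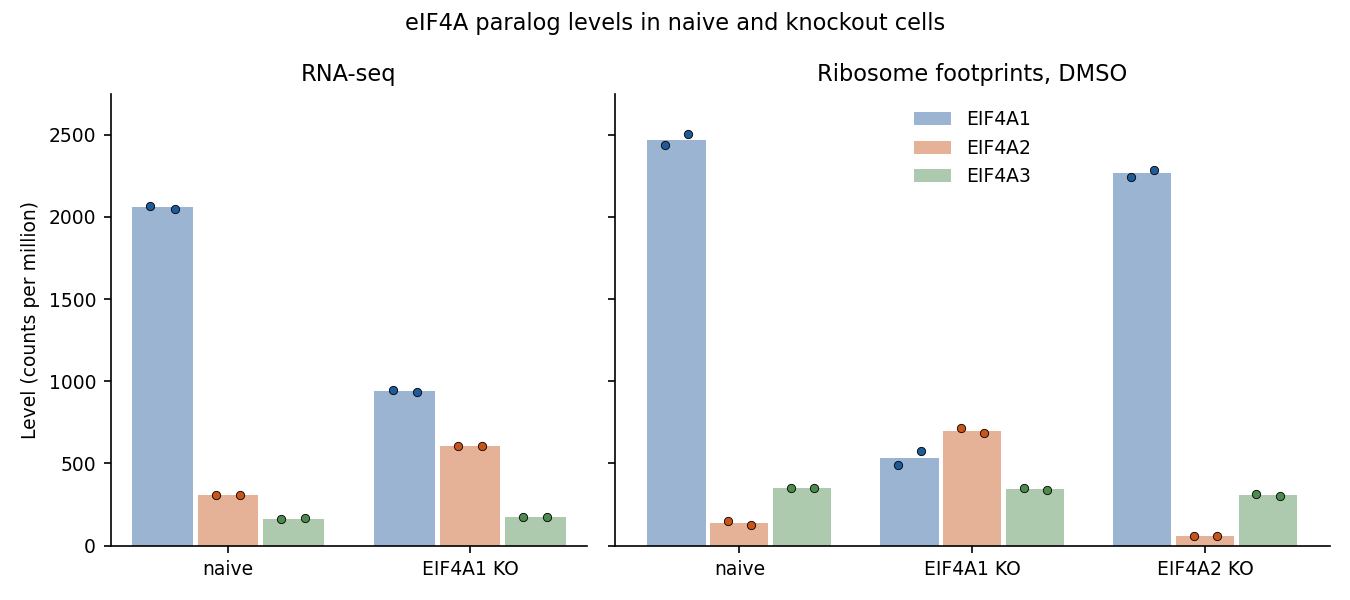
Levels of EIF4A1, EIF4A2 and EIF4A3 in CPM, in RNA-seq (left) and in DMSO ribosome footprints (right), by genotype; bars are means and points are single libraries (n = 2 per group). In EIF4A1 KO cells EIF4A2 footprints (714 and 685) lie above EIF4A1 footprints (490 and 577), while EIF4A3 footprints are 341 to 353 there and in naive cells (305 and 315 for the EIF4A2 KO line).

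The EIF4A2 gain did not make up the summed level of the eIF4F helicase mRNAs. EIF4A1 and EIF4A2 together stood at 2373 and 2355 CPM in naive RNA-seq and at 1554 and 1539 CPM in EIF4A1 KO RNA-seq, a ratio of means of 0.654. In DMSO footprints the sum was 2586 and 2626 CPM in naive cells and 1204 and 1262 CPM in EIF4A1 KO cells, a ratio of 0.473. The sums of the KO libraries lay below those of the naive libraries in both assays. All values are shares of a library, so a change of total mRNA or of total translation would not be seen in them.

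Translation efficiency, the footprint change beyond the RNA change, was tested as the interaction of assay and genotype over the 8 libraries. It fell for EIF4A1 by 1.13 on the log2 scale (SE 0.061; edgeR adjusted p 1.68e-28). For EIF4A2 it rose by 1.33 (SE 0.073; edgeR adjusted p 4.02e-28). The ratio of mean footprints to mean RNA went from 1.20 to 0.567 for EIF4A1 and from 0.446 to 1.16 for EIF4A2. For EIF4A3 the change was -0.14 (SE 0.073; edgeR adjusted p 0.278), with ratios of 2.13 and 2.0. 2 of 3 members were called, in opposite directions, where 9.48% of 25458 transcripts were called. On the log2 scale, RNA and translation efficiency contributed about alike to the footprint change of EIF4A1, and translation efficiency more than RNA to that of EIF4A2.

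**Figure D2:**
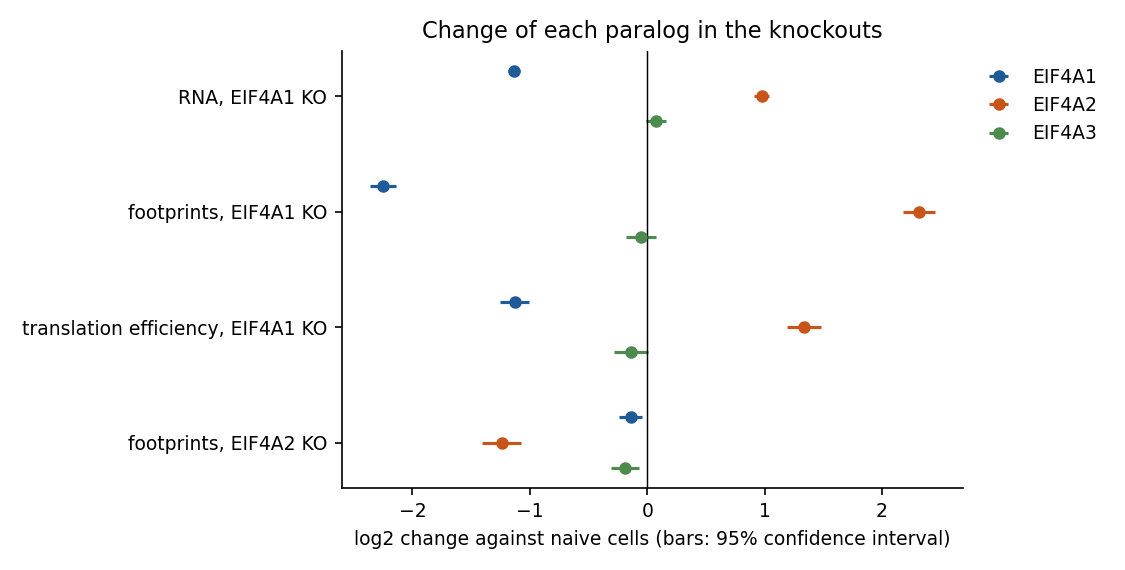
Log2 change against naive cells for each paralog in RNA, DMSO footprints and translation efficiency of EIF4A1 KO cells and in DMSO footprints of EIF4A2 KO cells; points are edgeR estimates and bars 95% confidence intervals. EIF4A1 and EIF4A2 lie on opposite sides of 0 in all 3 measures of EIF4A1 KO cells, and EIF4A3 lies between -0.14 and 0.07 there.

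EIF4A2 KO cells gave a different picture: the targeted paralog fell and EIF4A1 did not rise. EIF4A2 footprints in DMSO stood at 57.9 and 58.8 CPM against 150 and 123 CPM in naive cells, 42.6% of the naive mean. The log2 change was -1.24 (SE 0.084; edgeR adjusted p 4.31e-26), and the groups did not overlap. EIF4A1 footprints stood at 2245 and 2287 CPM against 2436 and 2503 CPM (log2 change -0.14, SE 0.050; edgeR adjusted p 0.0622; 0.0348 with no filter on low counts and 0.049 without EIF4A1 KO replicate 2). The 95% confidence interval of the EIF4A1 change, -0.24 to -0.04, held no increase. EIF4A3 footprints stood at 315 and 305 CPM against 350 and 349 CPM. The log2 change of EIF4A3 was -0.19 (SE 0.060; edgeR adjusted p 0.0283), a call that the DESeq2 Wald test (adjusted p 0.124) and leaving out any naive or EIF4A2 KO library did not keep (adjusted p 0.062 to 0.233). Here 8.04% of 19844 transcripts were called. The sum of EIF4A1 and EIF4A2 footprints was 89.2% of the naive mean. RNA of EIF4A2 KO cells was not analysed here, so its RNA and translation efficiency cannot be separated.

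Both KO comparisons share the naive libraries. Set against each other directly, EIF4A1 KO and EIF4A2 KO cells in DMSO differed by -2.11 in EIF4A1 (SE 0.056; edgeR adjusted p 6.15e-67) and by 3.56 in EIF4A2 footprints (SE 0.077; edgeR adjusted p 6.53e-77). EIF4A3 differed by 0.14 (SE 0.065; edgeR adjusted p 0.113). In this comparison 22.6% of the transcripts were called.

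The footprint levels were also compared over all 4 profiling libraries of each genotype, which carry the same treatments, with an exact two-sided permutation test of the mean log2 level (n = 4 per genotype, 12 tests). The smallest p this design allows is 0.0286. Between EIF4A1 KO and naive cells that p was reached by EIF4A1 (difference -2.29), EIF4A2 (2.34) and the sum of both (-1.23), each with an adjusted exact p of 0.049. Between EIF4A2 KO and naive cells it was reached by EIF4A2 alone (difference -1.14, adjusted exact permutation p 0.049). EIF4A1 there gave -0.17 (exact permutation p 0.4) and the sum -0.21 (exact permutation p 0.4), and the 4 libraries of each genotype overlapped. EIF4A3 overlapped in all 3 pairs of genotypes (exact permutation p 0.171 to 0.429). These tests mix treatments, and the genotypes were therefore also permuted within treatment (24 arrangements, smallest possible p 0.0833), a test added after the data were seen. Within each of the 3 treatments, the TMM-scaled EIF4A1, EIF4A3 and summed levels of EIF4A2 KO libraries were all below those of naive libraries. Every difference reached that smallest exact permutation p of 0.0833 apart from EIF4A3 between EIF4A1 KO and EIF4A2 KO cells (0.167), so this design cannot pass the threshold. The overlap over all 4 libraries therefore does not show that EIF4A1 was alike in naive and EIF4A2 KO cells.

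Counts that remained in the KO cells came from the whole listed coding region, since the files hold no positions along a transcript. Where an edit lies, and whether the remaining reads pass it, was not tested. In EIF4A1 KO cells, 7 further transcripts next to EIF4A1 in the list, whose levels correlated with it at 0.9 or more, had RNA at 0.447 to 0.460 and footprints at 0.169 to 0.246 times the naive level. For 6 such transcripts next to EIF4A2, the footprint ratio of EIF4A2 KO to naive cells was 0.407 to 0.736, and that of EIF4A1 KO to naive cells 3.96 to 5.11. The correlation was taken over these same libraries, with the KO libraries included. Transcripts that overlap can also share reads. Ratios near those of the member follow in part from this choice and are not separate evidence on the counts that remained. EIF4A1 and EIF4A2 also have similar coding sequences and processed pseudogenes. How the submitters treated reads that fit several genes is not given in the sources used here. The lowest levels of each paralog are therefore uncertain by an amount that was not estimated.

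The share of EIF4A2 in the counts of the eIF4F helicase pair does not depend on library scaling and puts all 31 libraries on 1 axis. In RNA-seq it was 12.9% and 13.0% in naive cells and 39.1% and 39.2% in EIF4A1 KO cells. In DMSO footprints it was 5.82% and 4.70% in naive cells. The EIF4A1 KO line stood at 59.3% and 54.3%, the EIF4A2 KO line at 2.51% and 2.51%. EIF4A1 KO cells were thus the only profiled genotype in which EIF4A2 took most of the pair, in all 4 of their libraries (50.7% to 59.3%). The Wilson 95% interval of the lowest of these, 1 µM PP242, ran from 49.0% to 52.3%, and so included equal counts. The intervals cover counting error only.

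**Figure D3:**
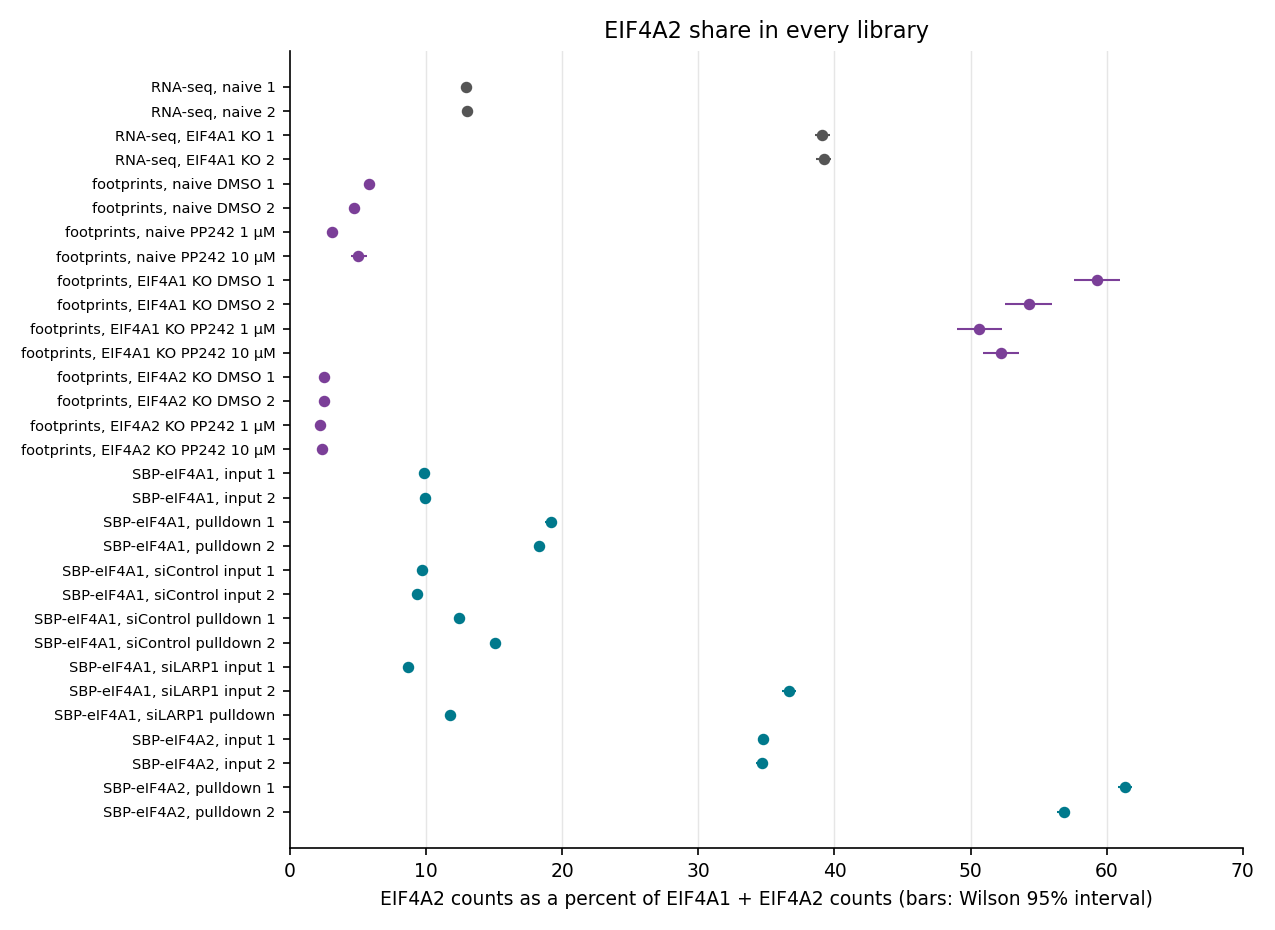
EIF4A2 counts as a percent of EIF4A1 plus EIF4A2 counts in each of the 31 libraries; points are libraries and bars Wilson 95% intervals, with RNA-seq in grey, footprints in purple and inputs and pulldowns in teal. The library labelled siLARP1 input 2 (36.7%) lies beside the SBP-eIF4A2 inputs (34.8% and 34.7%) and not beside the other SBP-eIF4A1 inputs (8.64% to 9.93%).

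After PP242 the footprint levels of EIF4A1 and EIF4A2 were lower, and those of EIF4A3 higher, than in DMSO in each genotype and at both doses. These separations of single PP242 libraries from DMSO are descriptions. The share of all transcripts with such a separation was not counted. EIF4A1 footprints in naive cells went from 2436 and 2503 CPM in DMSO to 2104 CPM at 1 µM and 2013 CPM at 10 µM. EIF4A1 KO libraries gave 490 and 577 CPM in DMSO and 434 and 405 CPM in PP242. EIF4A2 KO libraries gave 2245 and 2287 CPM in DMSO and 1823 and 1778 CPM in PP242. Every PP242 library was below both DMSO libraries of its genotype, at 76.0% to 85.2% of the DMSO mean.

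EIF4A2 footprints were lower as well. In naive cells they went from 150 and 123 CPM to 67.7 CPM at 1 µM and 106 CPM at 10 µM. In EIF4A1 KO cells, where EIF4A2 was the larger of the pair, they went from 714 and 685 CPM to 446 and 444 CPM. In EIF4A2 KO cells the remaining EIF4A2 footprints went from 57.9 and 58.8 CPM to 40.8 and 43.0 CPM. All 6 PP242 libraries were below both DMSO libraries of their genotype, at 49.4% to 77.8% of the DMSO mean. The lowest of these percentages and the highest both came from naive cells, at 1 µM and 10 µM.

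EIF4A3 moved the other way. Its footprints went from 350 and 349 CPM to 475 and 451 CPM in naive cells. The EIF4A1 KO line went from 353 and 341 CPM to 429 and 444 CPM. The EIF4A2 KO line went from 315 and 305 CPM to 434 and 416 CPM. All 6 PP242 libraries were above both DMSO libraries of their genotype, at 124% to 140% of the DMSO mean. These plain CPM values are shares of a library. TMM scaling gave a smaller mean rise of EIF4A3, 0.24 log2 units against 0.40 on plain CPM. No RNA-seq with PP242 was analysed here, so RNA and translation cannot be separated under PP242.

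**Figure D4:**
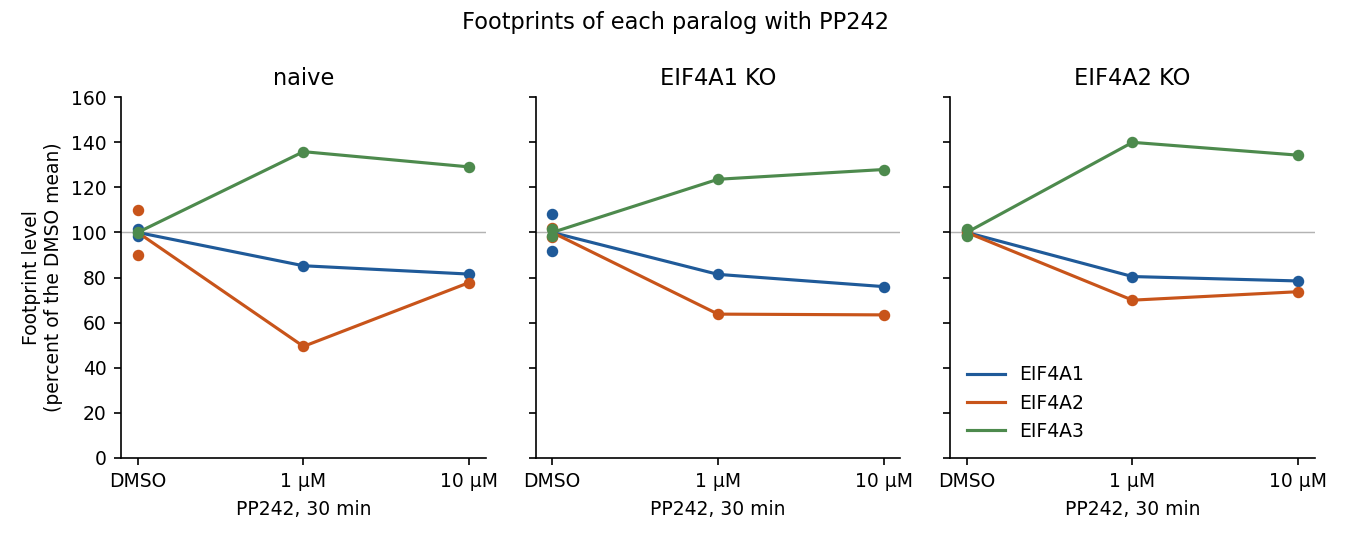
Footprint level as a percent of the genotype's DMSO mean against PP242 dose (30 min) for each paralog, in naive, EIF4A1 KO and EIF4A2 KO cells; points are single libraries and lines join the DMSO mean to the 1 library at each dose. Levels are plain CPM. EIF4A1 and EIF4A2 lie below 100 and EIF4A3 above 100 at both doses in each genotype.

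Each dose has 1 library per genotype, so the test used the trend over a dose score of 0, 1 and 2. The EIF4A1 slopes were -0.24 (SE 0.070) in naive, -0.29 (SE 0.071) in EIF4A1 KO and -0.27 (SE 0.069) in EIF4A2 KO cells, with edgeR adjusted p-values of 0.111, 0.105 and 0.0448. The EIF4A2 slopes were -0.34, -0.43 and -0.33 (SE 0.12 to 0.14) and the EIF4A3 slopes 0.13, 0.11 and 0.16 (SE 0.067), in the same order, none of them called (edgeR adjusted p 0.186 to 0.619). The trend called 1.41% of 20505 transcripts in naive cells, 2.18% in EIF4A2 KO cells and 0.0% (0 transcripts by edgeR, 1999 at an unadjusted p under 0.05, and 8 by the DESeq2 Wald test) in EIF4A1 KO cells. 1 of these 9 member slopes was called, and that call was lost in 8 of 18 alternatives. Single libraries moved the slopes. Without its 10 µM library a line keeps DMSO and 1 µM only, so that slope is the change over 1 step. Without the naive 10 µM library the EIF4A2 slope in naive cells was -1.19 (edgeR adjusted p 0.000326), and the EIF4A1 KO slopes of EIF4A1 and EIF4A2, at -0.28 and -0.43, were called (0.0324 and 0.0031). Without its 10 µM library, the EIF4A1 KO line gave slopes of -0.43, -0.78 and 0.17 for EIF4A1, EIF4A2 and EIF4A3, and the EIF4A2 KO line -0.48, -0.68 and 0.32. The naive slopes of EIF4A1 and EIF4A3 without the naive 10 µM library were -0.40 and 0.27. Of these last 8 slopes, EIF4A1 in EIF4A2 KO cells was called (edgeR adjusted p 0.0473) and the other 7 were not. Leaving out the 1 µM library of naive cells, or either PP242 library of EIF4A2 KO cells, also gained calls for EIF4A1 or EIF4A2 (edgeR adjusted p 0.00307 to 0.0489).

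The result depended on how dose was coded. With PP242 at either dose against DMSO, EIF4A1 fell by 0.42, 0.49 and 0.49 on the log2 scale in naive, EIF4A1 KO and EIF4A2 KO cells (edgeR adjusted p 5.01e-08, 2.98e-08 and 4.33e-10). EIF4A2 fell by 0.85, 0.79 and 0.63 (edgeR adjusted p 7.87e-10, 2.55e-13 and 8.93e-05). EIF4A3 rose by 0.25 in naive and 0.30 in EIF4A2 KO cells (edgeR adjusted p 0.00492 and 0.00034), and its change in EIF4A1 KO cells was 0.19 (adjusted p 0.0711). Under this coding 8 of 9 member changes were called, where 9.38%, 6.02% and 11.7% of transcripts were called in the same order of genotypes. Among 20505 transcripts EIF4A3 ranked 4298, 6248 and 3542 from the top, so many transcripts rose more. From the bottom, EIF4A1 ranked 2764, 1637 and 2115 and EIF4A2 771, 570 and 1290. An exact two-sided permutation of PP242 and DMSO labels within genotypes (216 arrangements), chosen after the data were seen, gave the smallest p it allows, 0.00926, for EIF4A1, EIF4A2, EIF4A3 and the sum of EIF4A1 and EIF4A2 (adjusted over 5 tests, 0.0116). The mean log2 differences were -0.46, -0.76, 0.24 and -0.53 with TMM scaling and -0.31, -0.60, 0.40 and -0.38 on plain CPM, so scaling moved each of them without changing a direction.

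No difference in the PP242 response was detected between genotypes, though leaving out 1 library moved the EIF4A2 values. None of the 9 differences between slopes was called: they ran from -0.10 to 0.03, with edgeR adjusted p-values of 0.902 or more. Their background was 0.00975% of transcripts for EIF4A1 KO against naive cells, 0.00488% for EIF4A1 KO against EIF4A2 KO cells and 0.0% for EIF4A2 KO against naive cells (0 transcripts by edgeR and by the DESeq2 Wald test, 769 at an unadjusted p under 0.05). With either dose against DMSO none of the 9 differences was called either, where 6.06% (EIF4A1 KO against naive), 0.0683% (EIF4A2 KO against naive) and 6.22% (EIF4A1 KO against EIF4A2 KO) of transcripts were. The slope intervals were wide: for EIF4A2, EIF4A1 KO minus naive, the 95% confidence interval was -0.46 to 0.28 per step. Without the naive 10 µM library that difference was 0.76 (edgeR adjusted p 0.0974), and the EIF4A2 difference of EIF4A2 KO minus naive cells went from 0.01 to 0.86, none of them called. The EIF4A2 share of the pair differed by -2.25 percentage points between PP242 and DMSO on average (exact permutation p 0.0556).

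The tagged transgenes were read in the inputs, where an SBP fusion adds its coding sequence to that of the native gene. SBP-eIF4A1 inputs held EIF4A1 at 3120 and 3092 CPM, and SBP-eIF4A2 inputs at 1852 and 1890 CPM. The log2 difference was 0.76 (SE 0.053; edgeR adjusted p 4.72e-08), a ratio of means of 1.66. EIF4A2 stood at 341 and 341 CPM in the SBP-eIF4A1 inputs and at 988 and 1003 CPM in the SBP-eIF4A2 inputs. That log2 difference was -1.52 (SE 0.059; edgeR adjusted p 5.43e-11), or 2.92 times more EIF4A2 in the SBP-eIF4A2 inputs. Each tagged paralog was thus higher in its own line, without overlap. EIF4A3 stood at 114 and 120 CPM against 144 and 139 CPM (log2 difference -0.25, SE 0.061; edgeR adjusted p 0.00843), a call not kept by the DESeq2 Wald test (adjusted p 0.055) or without SBP-eIF4A1 input replicate 1 (0.168), SBP-eIF4A2 input replicate 1 (0.119) or SBP-eIF4A2 input replicate 2 (0.0677). In this comparison 18.5% of 26600 transcripts were called.

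A side-by-side reading with naive RNA-seq, which used the same library kit but was a separate experiment, carries no test. EIF4A1 in SBP-eIF4A1 inputs was 1.51 times its naive RNA-seq level, and in siControl inputs 1.48 times. EIF4A2 in SBP-eIF4A2 inputs was 3.24 times its naive level. The paralog that was not tagged stood at 1.11 times (EIF4A2 in SBP-eIF4A1 inputs) and 0.909 times (EIF4A1 in SBP-eIF4A2 inputs) the naive level. Even with the transgene, EIF4A2 per length was 0.531 times EIF4A1 in the SBP-eIF4A2 inputs. Native and tagged mRNA cannot be told apart in these counts.

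Pulldown with SBP-eIF4A1 recovered the paralog mRNAs unevenly. EIF4A1 went from 3120 and 3092 CPM in input to 2135 and 2276 CPM in pulldown, a log2 change of -0.37 (SE 0.053; edgeR adjusted p 1.22e-05). EIF4A2 went from 341 and 341 CPM to 506 and 509 CPM (log2 change 0.70, SE 0.058; edgeR adjusted p 2.20e-08). EIF4A3 went from 114 and 120 CPM to 55.8 and 59.0 CPM (log2 change -0.91, SE 0.066; edgeR adjusted p 3.59e-09). EIF4A2 was the member that rose. Calls were the rule here: 55.4% of 26600 transcripts were called.

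With SBP-eIF4A2, too, EIF4A2 was the member that rose. EIF4A1 went from 1852 and 1890 CPM to 974 and 1020 CPM (log2 change -1.09, SE 0.053; edgeR adjusted p 2.11e-11). EIF4A2 went from 988 and 1003 CPM to 1547 and 1343 CPM, a log2 change of 0.35 (SE 0.056; edgeR adjusted p 4.61e-05). EIF4A3 went from 144 and 139 CPM to 78.9 and 76.1 CPM (log2 change -1.06, SE 0.062; edgeR adjusted p 2.12e-10). With both proteins EIF4A2 mRNA rose and the mRNAs of EIF4A1 and EIF4A3 fell, also on plain CPM, where EIF4A2 was 1.49 and 1.45 times its input level. The background was 59.8%. Among 26600 transcripts, the rise of EIF4A2 ranked 6359 from the top with SBP-eIF4A1 and 9663 with SBP-eIF4A2, so many transcripts rose more. No pulldown from cells without a tag was analysed here, so RNA held by the beads alone is part of these values.

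With TMM scaling, the enrichment of EIF4A1 and EIF4A2 mRNA differed between the proteins. The log2 enrichment with SBP-eIF4A1 exceeded that with SBP-eIF4A2 by 0.72 for EIF4A1 (SE 0.074; edgeR adjusted p 5.39e-06), by 0.35 for EIF4A2 (SE 0.081; edgeR adjusted p 0.0072) and by 0.15 for EIF4A3 (SE 0.090; edgeR adjusted p 0.307). Without SBP-eIF4A2 input replicate 2 the adjusted p for EIF4A2 was 0.050. Of 26600 transcripts, 15.7% were called. These differences depend on scaling, since plain CPM puts them 0.31 lower, at 0.41 for EIF4A1, 0.03 for EIF4A2 and -0.16 for EIF4A3. The EIF4A2 share of the pair, which needs no scaling, went from 9.86% and 9.93% in input to 19.1% and 18.3% in the SBP-eIF4A1 pulldown and from 34.8% and 34.7% to 61.4% and 56.8% in the SBP-eIF4A2 pulldown. It rose in both, with no overlap.

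**Figure D5:**
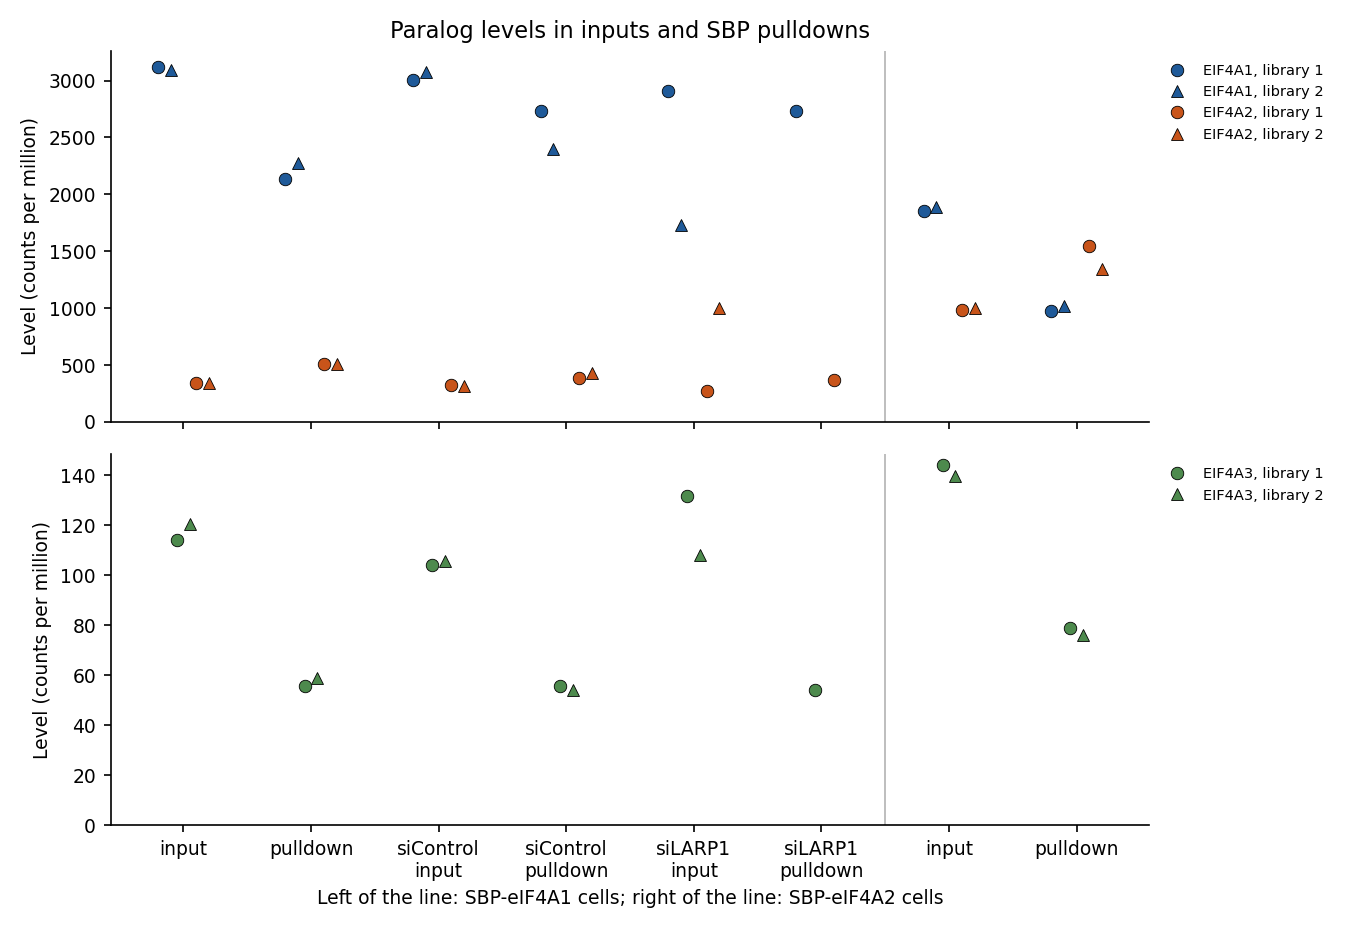
Levels in CPM of EIF4A1 and EIF4A2 (top) and EIF4A3 (bottom) in inputs and pulldowns of SBP-eIF4A1 cells (left of the line) and SBP-eIF4A2 cells (right of the line); each symbol is 1 library. EIF4A3 is lower in pulldown (54.2 to 78.9) than in input (104 to 144) throughout, and the triangle of siLARP1 input 2 lies apart from the other SBP-eIF4A1 inputs for EIF4A1 and EIF4A2.

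The siRNA experiment repeated the SBP-eIF4A1 pulldown. In siControl cells EIF4A1 went from 3002 and 3076 CPM in input to 2734 and 2402 CPM in pulldown (log2 change -0.71, SE 0.19; edgeR adjusted p 0.00148). EIF4A3 went from 104 and 105 CPM to 55.8 and 54.2 CPM (log2 change -1.40, SE 0.19; edgeR adjusted p 5.29e-08). Both fell, as in the experiment without siRNA. EIF4A2 went from 323 and 315 CPM to 388 and 427 CPM, 1.28 times on plain CPM, but its TMM-scaled log2 change was -0.12 (SE 0.26; edgeR adjusted p 0.736). Its direction therefore turned with the scaling, since plain CPM put all 3 log2 changes 0.47 higher. The EIF4A2 share of the pair was 9.71% and 9.30% in input and 12.4% and 15.1% in pulldown. The background was 49.3% of 26707 transcripts. Without the library labelled siLARP1 input replicate 2, which enters the shared spread of this fit, the changes were -0.72 for EIF4A1 (edgeR adjusted p 0.000523), -0.12 for EIF4A2 (0.554) and -1.40 for EIF4A3 (4.28e-07).

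The paralog levels in the inputs of both SBP-eIF4A1 experiments were also compared, native and tagged mRNA together. siControl inputs minus inputs without siRNA gave log2 differences of 0.24 (SE 0.16), 0.18 (SE 0.35) and 0.11 (SE 0.12) for EIF4A1, EIF4A2 and EIF4A3 with TMM scaling (edgeR adjusted p 0.239, 0.701 and 0.458). On plain CPM the differences were -0.03, -0.10 and -0.16, so no direction held. Without either siLARP1 input library, EIF4A1 and EIF4A2 were called in the TMM fit (adjusted p 0.000922 to 0.0293). Here 47.2% of 25345 transcripts were called.

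After LARP1 siRNA the inputs gave no stable value. EIF4A1 stood at 2913 CPM in siLARP1 input replicate 1 and at 1731 CPM in the library labelled replicate 2, against 3002 and 3076 CPM in siControl. EIF4A2 stood at 276 and 1002 CPM against 323 and 315 CPM, and EIF4A3 at 132 and 108 CPM against 104 and 105 CPM. The log2 differences were -0.58 (SE 0.19), 0.81 (SE 0.26) and 0.01 (SE 0.19), with edgeR adjusted p-values of 0.141, 0.144 and 0.998, where 0.517% of 26707 transcripts were called. Without the library labelled replicate 2, EIF4A2 gave -0.40 (edgeR adjusted p 0.522), EIF4A1 -0.25 and EIF4A3 0.15. Without replicate 1, EIF4A2 gave 1.47 (adjusted p 0.000841) and EIF4A1 -0.99 (adjusted p 0.0249). Without siControl pulldown replicate 2, which enters the shared spread only, EIF4A2 was called as well (0.81, adjusted p 0.0367). The sign of EIF4A2 was thus set by 1 library.

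The single siLARP1 pulldown held EIF4A1 at 2734 CPM, EIF4A2 at 364 CPM and EIF4A3 at 54.3 CPM. EIF4A1 and EIF4A3 lay between the siControl pulldowns and EIF4A2 below both. Against siLARP1 input replicate 1 these were 0.939, 1.32 and 0.412 times, and against the library labelled replicate 2 they were 1.58, 0.364 and 0.502 times. The pulldown's EIF4A2 share of 11.8% lay near the siControl pulldowns and far from the SBP-eIF4A2 pulldowns. With 1 library there is no test.

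Across the 31 libraries, the transcripts whose log2 CPM followed each member most closely were found among 5816 or 5817 transcripts. The points share library type, which separates footprints from RNA, so these correlations are descriptions. For EIF4A1 they were ENST00000582746.5 (Pearson r 0.999), whose counts were 75.5% to 87.3% of those of EIF4A1 in every library, and ENST00000309007.9 (r 0.728). For EIF4A2 they were ENST00000373030.8 (r 0.822) and ENST00000263036.9 (r 0.819). For EIF4A3 they were ENST00000249776.12 (r 0.984) and ENST00000455432.5 (r 0.983). EIF4A3 had closer followers than EIF4A2. Without the library labelled siLARP1 input replicate 2 these 6 correlations were 0.999, 0.730, 0.812, 0.842, 0.984 and 0.986 over 30 libraries, in the same order. The files pair none of these with a gene. Only neighbours within 10 distinct rows were dropped, so a follower further away can still share reads with a member. Whether ENST00000582746.5 overlaps EIF4A1 was not tested.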

How the data were processed

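The values are whole-number read counts per transcript, deposited by the authors as 1 table per library with transcript identifier, length and count. The submitters' processing notes name the genome build hg38, CASAVA 1.8 and STAR 2.7.0a; the counting rule is not given in the sources used here. Per the labels' protocols, footprints were made with RNase I, size selection, linker ligation and circularization, and RNA-seq and pulldown libraries with a stranded mRNA kit. Read counts recur in transcripts that overlap. Of 227264 listed transcripts, 94734 had a count and 77343 had distinct counts. Of these, 35499 were kept under a rule that aims at 1 per locus. A neighbour within 10 distinct rows was dropped when its log2 CPM correlated at 0.9 or more.

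Comparisons used edgeR 4.0.16 (quasi-likelihood, TMM, filterByExpr with a minimum count of 10 and total of 15) and R 4.3.3, with Benjamini-Hochberg adjustment and a threshold of 0.05. The groups of 1 experiment shared the spread: RNA-seq, DMSO footprints, all footprints, RNA-seq with DMSO footprints, the pulldowns without siRNA, the siRNA libraries, and all inputs were fitted separately. Alternatives were DESeq2 1.42.0 size factors and Wald test, no filter, all distinct transcripts, another coding of dose, the replicate number as a block, plain CPM, and leaving out each library. The crossed block, the permutation within genotypes, the plain CPM ratios and the check of the siLARP1 input label were added after the data were seen. The label check used transcripts with a mean of at least 4 log2 CPM and left out those within 50 distinct rows of a member or correlated with one at 0.99 or more. Shares have Wilson 95% intervals. The edgeR steps were tested on simulated data.

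The members and lists were chosen with earlier results of these data known. The transcripts named are the 3 members and, for each, the 2 most correlated over the 31 libraries, among kept transcripts with a mean of at least 5 log2 CPM and more than 10 distinct rows away. A list of 11 genes (eIF4F and its cofactors, the exon junction complex, LARP1) was not used here, since no file ties a transcript to a symbol.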

Additional observations from a re-analysis of the deposited data

Results flagged for a closer look

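The enrichment of EIF4A1 and EIF4A2 mRNA in pulldown over input differed between the proteins by a direct test with TMM scaling. The SBP-eIF4A1 enrichment exceeded the SBP-eIF4A2 enrichment by 0.724 for EIF4A1 (edgeR adjusted p 5.39e-06) and by 0.346 for EIF4A2 (edgeR adjusted p 0.0072) on the log2 scale. For EIF4A1 the difference was 0.41 on plain CPM and for EIF4A2 0.03. Each protein's own mRNA also carries the tagged transgene, whose part in the difference was not tested.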

How the results depend on the processing

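Of 806 member values recomputed under alternatives, 718 kept their direction and their side of the threshold, 33 lost a call, 33 gained one and 22 changed sign; except for the permutations below with DMSO libraries only or within treatment, the knockout changes of EIF4A1 and EIF4A2 in RNA, footprints and translation efficiency of EIF4A1 KO cells, and of EIF4A2 in EIF4A2 KO cells, kept call and direction under all of theirs. The cause of a change was not tested unless named.

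With no filter on low counts, EIF4A1 footprints in EIF4A2 KO minus naive cells gave -0.14 and were called. So were the PP242 slopes of -0.24 (EIF4A1) and -0.34 (EIF4A2) in naive, -0.28 and -0.42 in EIF4A1 KO and -0.33 (EIF4A2) in EIF4A2 KO cells, and the siLARP1 minus siControl input differences of -0.57 (EIF4A1) and 0.82 (EIF4A2). With all distinct transcripts the EIF4A1 slope in EIF4A2 KO cells was -0.27 and not called, and with log2(dose + 1) it was -0.14 and not called. PP242 at either dose against DMSO gave called changes of -0.42, -0.85 and 0.25 for EIF4A1, EIF4A2 and EIF4A3 in naive cells, -0.49 and -0.79 for EIF4A1 and EIF4A2 in EIF4A1 KO cells, and -0.63 and 0.30 for EIF4A2 and EIF4A3 in EIF4A2 KO cells.

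Apart from leaving out a library, and from the plain CPM ratios given with the pulldowns and inputs, signs turned in these values: the EIF4A2 slope in EIF4A2 KO minus naive cells was -0.00808 by the DESeq2 Wald test and -0.023 with log2(dose + 1). With either dose against DMSO, EIF4A2 in EIF4A1 KO minus naive cells was 0.057 and EIF4A1 in EIF4A1 KO minus EIF4A2 KO cells 0.0024. EIF4A3 in siLARP1 minus siControl inputs was -0.0121 with DESeq2 size factors and -0.0120 by the Wald test. With DMSO libraries only, the footprint differences of EIF4A1 KO minus naive cells were -2.25 (EIF4A1), 2.32 (EIF4A2) and -1.12 (their sum), of EIF4A2 KO minus naive cells -1.24 (EIF4A2), and of EIF4A1 KO minus EIF4A2 KO cells -2.11, 3.56 and -0.94, where 2 against 2 libraries cannot go below an exact p of 0.333. Permuted within treatment, the differences over all libraries stayed at -2.29, 2.34, -1.23, -1.14, -2.11, 3.48 and -1.02, in the same order, where the exact p cannot go below 0.0833.

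Leaving out 1 library at a time gave these ranges. A slope without its 10 µM library covers DMSO to 1 µM only and is not on the scale of the others. EIF4A1 footprints in EIF4A2 KO minus naive cells ran from -0.17 to -0.12. The EIF4A1 slopes ran from -0.40 to -0.21 in naive, -0.43 to -0.21 in EIF4A1 KO and -0.48 to -0.24 in EIF4A2 KO cells, and the EIF4A2 slopes from -1.19 to -0.20 in naive -0.78 to -0.39 in EIF4A1 KO and -0.68 to -0.29 in EIF4A2 KO cells, each lowest without that genotype's 10 µM library. The EIF4A3 slopes ran from 0.11 to 0.27, 0.091 to 0.17 and 0.13 to 0.32 in the same order of genotypes. Slope differences in EIF4A1, EIF4A2 and EIF4A3 ran from -0.19 to 0.12, -0.44 to 0.76 and -0.16 to 0.049 for EIF4A1 KO minus naive cells, from -0.24 to 0.13, -0.34 to 0.86 and -0.11 to 0.19 for EIF4A2 KO minus naive cells, and from -0.16 to 0.20, -0.45 to 0.25 and -0.21 to 0.020 for EIF4A1 KO minus EIF4A2 KO cells. The siLARP1 minus siControl inputs ran from -0.99 to -0.25, -0.40 to 1.47 and -0.13 to 0.15. Where a group was left with 1 library, that library was assumed to vary like the others.

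Counts of called transcripts moved by more than 1.5 times in 92 of 255 recomputations. Against 9390 in RNA-seq they ran from 5441 (DESeq2 Wald test) to 26611 (all distinct transcripts, a larger number tested). They ran from 2216 to 13443 against 4508, 526 to 4696 against 1596 and 2265 to 13634 against 4488 in DMSO footprints (EIF4A1 KO minus naive, EIF4A2 KO minus naive, EIF4A1 KO minus EIF4A2 KO). Translation efficiency gave 1512 to 7223 against 2414. Slopes gave 0 to 1924 against 289 in naive, 0 to 1234 against 0 in EIF4A1 KO and 0 to 2400 against 448 in EIF4A2 KO cells, and slope differences 0 to 1243 against 2, 0 to 14 against 0 and 0 to 1275 against 1, in the order above. The pulldowns gave 11908 to 42029 against 14727 (SBP-eIF4A1), 12699 to 44799 against 15905 (SBP-eIF4A2) and 9992 to 37604 against 13173 (siControl), their enrichment difference 2380 to 13212 against 4176, and the inputs 2443 to 15478 against 4911 (SBP-eIF4A1 minus SBP-eIF4A2), 18 to 618 against 138 (siLARP1 minus siControl) and 8078 to 32513 against 11962 (siControl minus no siRNA).

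Replicate numbers were shared between groups, but the labels give them no meaning and the deviations of same-numbered libraries correlated at -0.19 to 0.57 over pairs of groups, so the pairing was not taken as real. With the replicate number as a block, 8999 transcripts were called in RNA-seq, 4035, 1139 and 4014 in the DMSO footprints, 2025 for translation efficiency, 14596, 15747, 4011 and 4772 for the SBP pulldowns, their difference and their inputs, 13441 for the siControl pulldown, 128 for the siLARP1 inputs and 11738 for siControl against no siRNA. Among members the block changed 1 call, EIF4A3 in EIF4A2 KO minus naive cells (-0.19, edgeR adjusted p 0.0699). With crossed numbers, 9888 transcripts were called in RNA-seq, 13558 for the siControl pulldown and 367 for the siLARP1 inputs. Depth limits EIF4A2 most, with 178 to 317 counts in EIF4A2 KO footprints.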
